A study of Mus musculus with 8 samples.

Results

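Late-passage mouse embryonic fibroblasts (MEFs) were compared with early-passage ones over all 8 arrays of the series, 4 late and 4 early. MEFs are connective tissue cells that grow out of dissociated embryos and are then carried in dishes, here in DMEM with fetal bovine serum. The arrays form 4 pairs, each made of the late and the early array of a single genotype and background: Smurf2-/- C57B6, wild-type C57B6, Smurf2-/- mixed BL and wild-type mixed BL. Mixed BL is a mixed 129SVJ/NIH Black Swiss background. Early was passage 7 in C57B6 and 6 in mixed BL, and late was passage 28 in C57B6 and 33 in mixed BL. Cells of 1 embryo founded each C57B6 culture, a pool of 3 embryos the Smurf2-/- mixed BL culture and a pool of 2 the wild-type mixed BL one, so every combination is a single culture. The sample descriptions give embryonic day 14.5 and the growth protocol day 11.5, and which of them holds is not known. The labels do not state that the early and late arrays of a pair were grown from the same culture. No array was repeated, so p-values reflect the spread among 4 pairs of arrays, part of which may be technical.

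Fibroblasts taken from mouse embryos divide quickly at first, slow down as a stress response driven by the p53 and Rb proteins accumulates, and then, with further passaging, give way to cells that divide without limit. Cells in that slow phase are known for enlarged lysosomes, the acidic compartments where proteins, sugars and lipids are digested, and for heavy secretion of proteases and chemokines. Late-passage lines in general often carry altered chromosome numbers.

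The values are log2 differences from each probe set's median over the 8 arrays. They show how a gene differed between arrays, but no absolute level, and levels of different genes cannot be compared. Where the 8 values of a gene's probe set were all whole multiples of the numerical step that log2 numbers from 8 upwards have in single precision, the gene is called bright here, since at least part of its signal then lay in that range; this applied to 3934 of 17501 genes, 22.5%. Of 11 fibroblast markers 7 were bright, among them the collagen, vimentin and fibronectin genes, and none of the leukocyte, endothelial, epithelial, muscle, adipocyte or pluripotent cell markers was; of the neural and cartilage markers Ncam1, Sox9 and Col2a1 were bright. Smurf2, the gene of a HECT-type ubiquitin ligase, stood in the Smurf2-/- arrays at -0.43 early and -1.21 late in C57B6 and at -0.70 early and -1.19 late in mixed BL. In the wild-type arrays it stood at 0.71 and 0.64 in C57B6 and at 0.96 and 0.43 in mixed BL, above all 4 Smurf2-/- arrays.

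Many genes differed in the same direction in all 4 pairs, and the limma test on the pairs called none of them. Of 17501 genes, 2639 were higher at late passage in all 4 pairs, 15.1%, and 2082 were lower in all 4, 11.9%; the largest set, 4698 genes, was higher in 3 of 4 pairs. Among bright genes the balance was turned: 303 were higher in all pairs, 7.7%, and 851 lower, 21.6%. Larger differences lay mostly on the lower side. A mean difference of 1 log2 unit or more with 1 sign in all pairs was found for 25 genes upwards, 0.143%, and for 148 genes downwards, 0.846%. A difference of at least 0.2 in every pair was found for 195 genes upwards, 1.11%, and for 634 downwards, 3.62%. The late values lay above all early values in 952 genes and below all of them in 803.

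Limma's moderated test on the pairs, with Benjamini-Hochberg adjustment over 22536 features, called 0 genes, 0.0%, with 2921 genes at an unadjusted p under 0.05 and a smallest adjusted p of 0.14. The test of whether the passage difference depended on genotype also called 0 genes, 0.0%, with 948 genes at an unadjusted p under 0.05, and the test of whether it depended on background called 0 genes, 0.0%, with 1597. A fit of genotype, background and passage as separate terms, run on the genes of 1 symbol alone, called 3 genes (smallest adjusted p = 0.0463). An exact sign-flip test of 1 gene over 4 pairs cannot give a two-sided p below 0.125. Counts and values below therefore describe these 4 pairs, and the shares just given are the background against which each gene list is read.

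A second yardstick came from genes that fibroblasts are not known to use. Of 341 olfactory and vomeronasal receptor genes, which serve smell, 67 were higher in all 4 pairs, 19.6%, and 5 lower, with a median difference of 0.04 and 0 members higher by at least 0.2 in every pair. A share of small positive differences near this one is therefore not read as a feature of a gene list.

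**Figure D1:**
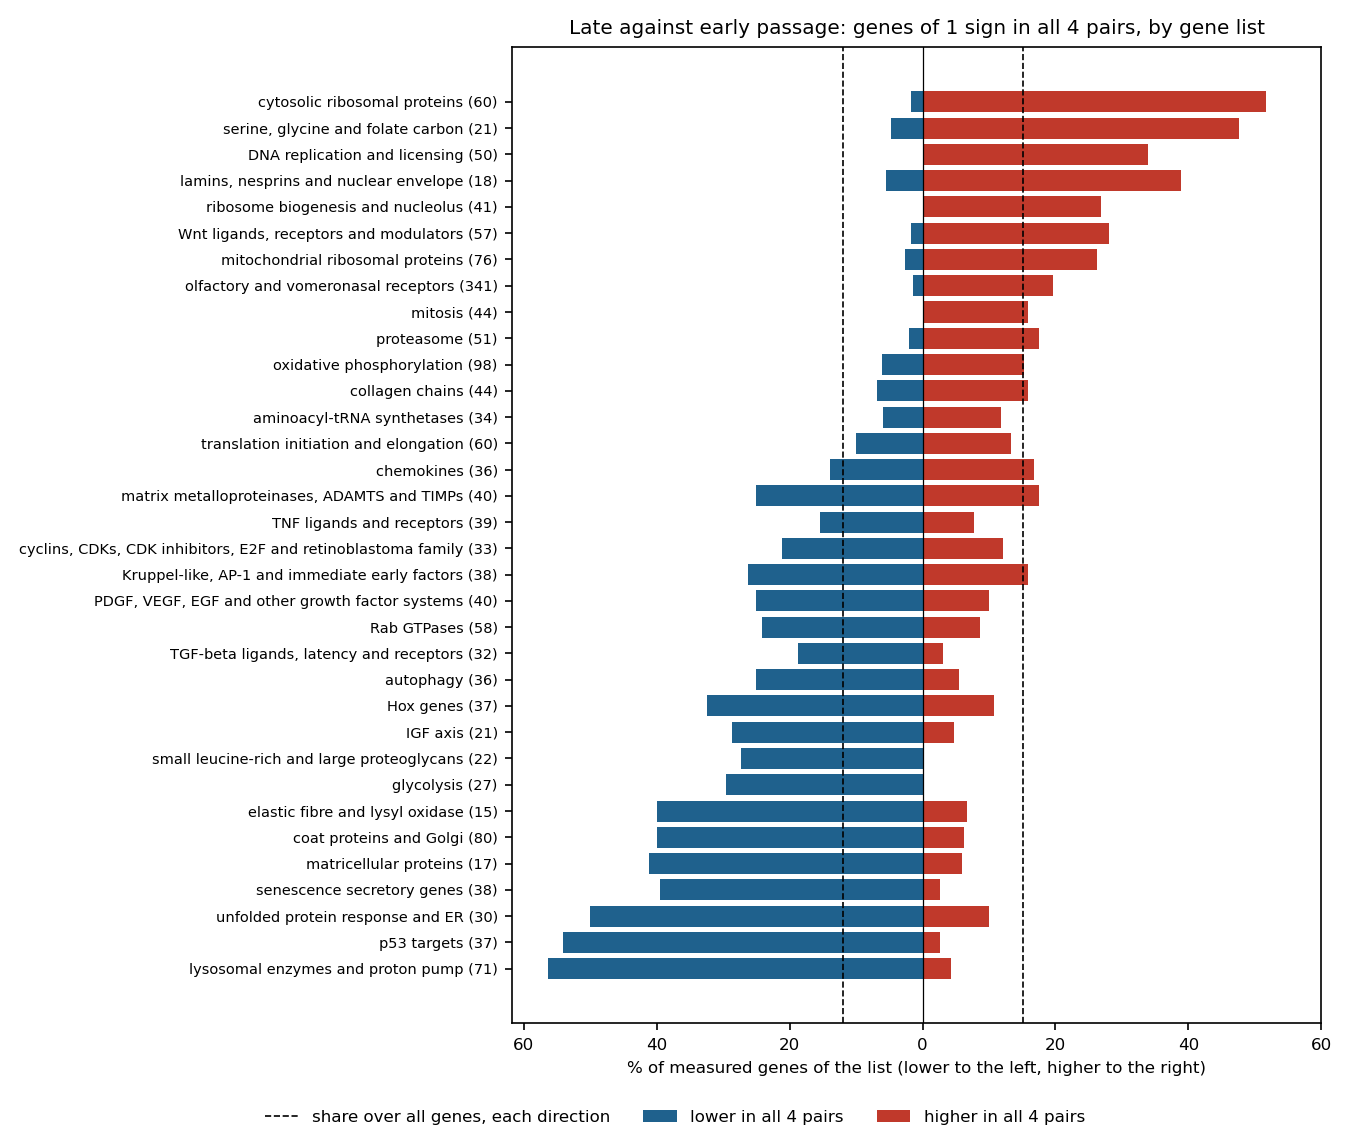
Percent of the measured genes of each list (number in brackets) that were lower (blue, to the left) or higher (red, to the right) at late passage in all 4 pairs; dashed lines mark the shares over all 17501 genes, 11.9% lower and 15.1% higher. Lysosomal genes reach 56.3% on the lower side and cytosolic ribosomal protein genes 51.7% on the higher side.

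Genes of the lysosome were lower at late passage in all cultures. Of 71 measured genes for lysosomal enzymes, membrane proteins and the proton pump, 40 were lower in all 4 pairs, 56.3%, and 3 were higher; over all genes 11.9% were lower. Restricted to bright genes, 34 of 45 were lower in all pairs, 75.6%, and 0 were higher, against 21.6% and 7.7% of all bright genes. The median difference over the 71 genes was -0.48, and 25 of the 40 were lower by at least 0.2 in every pair. By role, 6 of 15 cathepsins, which are lysosomal proteases, 13 of 23 proton pump genes, which acidify the compartment, and 21 of the 33 other members were lower in all pairs, with median differences of -0.65, -0.36 and -0.51. None was called by limma.

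Among the lysosomal genes, Tpp1, a tripeptidyl peptidase, stood at 0.66, 0.62, 0.15 and 0.49 in the early arrays of Smurf2-/- C57B6, wild-type C57B6, Smurf2-/- mixed BL and wild-type mixed BL. In the late arrays, in the same order, it stood at -0.34, -0.15, -0.86 and -0.24. All 4 late values lay below all 4 early values, with a mean difference of -0.88 ± 0.08 (limma's moderated SE, n = 4 pairs, limma adjusted p = 0.146). Each SE printed here after ± is moderated, drawn towards a variance common to all features. It is therefore not the plain SE of the 4 pair differences. Fuca1, which removes fucose from glycoproteins, stood at 0.34, 0.59, 0.14 and 0.49 early and at -0.59, -0.29, -0.67 and -0.14 late, a difference of -0.81 ± 0.07. Ctsb, the protease cathepsin B, stood at 0.23, 0.41, 0.36 and 0.48 early and at -0.59, -0.58, -0.23 and -0.48 late, a difference of -0.84 ± 0.09. In both genes the groups did not overlap either. Ctsk, the collagen-digesting cathepsin K, had the largest difference of the list, -2.47 ± 0.40, but its groups overlapped: the early C57B6 arrays stood at -0.26 and 0.26, and the late Smurf2-/- mixed BL array at 0.42 against -2.23, -2.20 and -2.22 in the other late arrays.

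Further members were picked after their values were seen, and 4 of them are the genes whose promoter windows are printed below. Cathepsin D (Ctsd) differed by -0.84 ± 0.18, cathepsin A (Ctsa) by -0.71 ± 0.12 and alpha-galactosidase A (Gla) by -0.68 ± 0.18. The membrane glycoprotein genes Lamp1 and Lamp2 differed by -0.54 ± 0.14 and -0.61 ± 0.19, and the proton pump subunit genes Atp6v0b and Atp6v1a by -0.89 ± 0.20 and -0.55 ± 0.10. The size varied between cultures: Lamp2 differed by -1.22 in Smurf2-/- C57B6, -0.54 in wild-type C57B6, -0.57 in Smurf2-/- mixed BL and -0.10 in wild-type mixed BL. Tfeb, which encodes a transcription factor of lysosomal genes, differed by 0.16 ± 0.06 and was higher in all 4 pairs. Over the 45 bright lysosomal genes the median difference was -0.69, -0.50, -0.57 and -0.32 in these 4 cultures, against -0.07, -0.07, -0.11 and -0.09 for the other bright genes.

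**Figure D2:**
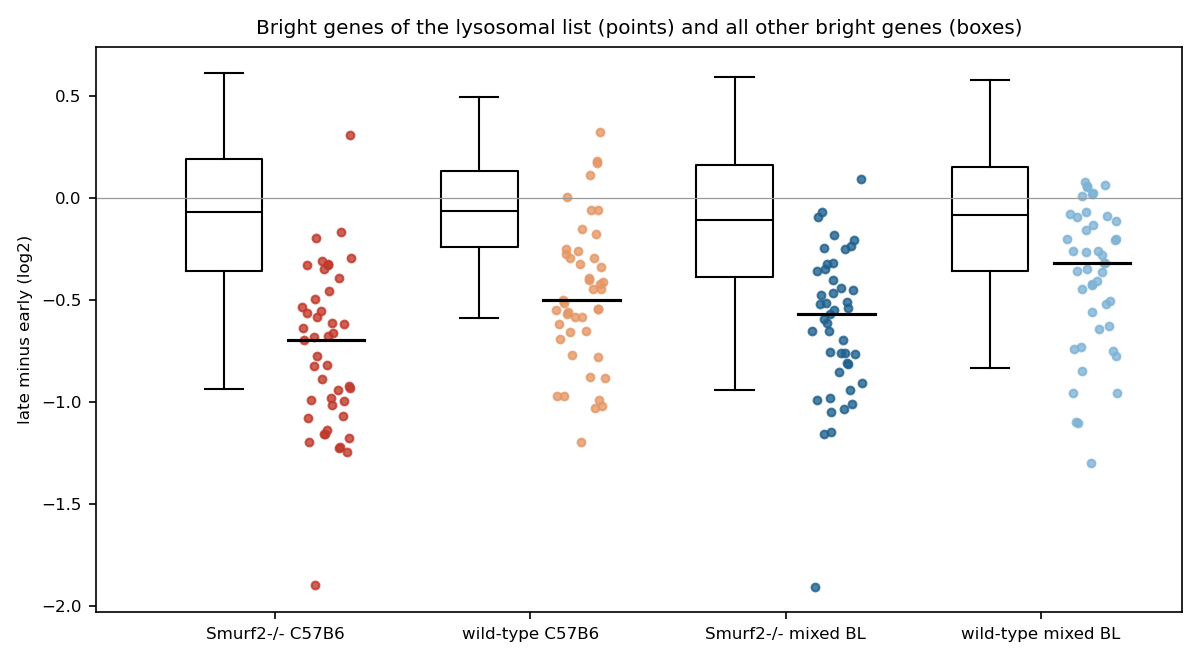
Late minus early difference (log2) of each of the 45 bright lysosomal genes in each culture (points, with the median as a black bar) beside the other bright genes (boxes: quartiles and median; whiskers: 5th to 95th percentile). In Smurf2-/- C57B6 44 of the 45 points lie below 0, in wild-type C57B6 40, in Smurf2-/- mixed BL 44 and in wild-type mixed BL 38.

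Macrophages are rich in lysosomes, so their markers were read beside this list. Of 8 macrophage and leukocyte markers 2 were lower in all 4 pairs and 0 higher: Cd68, itself a lysosomal membrane protein, by -0.89 ± 0.11, and Lyz2, a lysozyme, by -1.72 ± 0.56. Lyz2 stood at 2.07 and 3.19 in the early mixed BL arrays and between -0.49 and 0.19 in the other 6. The mean of the 8 markers ranged from 0.02 to 0.52 in the early arrays and from -0.11 to -0.05 in the late ones. The 6 others, among them the leukocyte phosphatase Ptprc, differed by -0.10 to 0.09, and none of the 8 was bright; their part in the lysosomal difference was not tested. In bulk RNA, fewer cells of a type and less RNA per cell cannot be told apart.

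Lysosomal genes are known to share a short palindromic promoter element bound by TFEB and its relatives, so their promoters were searched in the RefSeq table of build GRCm38.p6, which held a promoter for 58 of the 71 genes. The 6-base core CACGTG, which reads the same on both strands, was present in the 250 bases before the start in 12 of 33 lysosomal genes that were lower in all pairs, 36.4%, and in 2 of the other 25, 8.0%. It was present in 6.86% of all 27025 promoters, in 11.5% of those of bright genes and in 13.3% of those of bright genes lower in all pairs. The longer TCACGTGA, which contains CACGTG, was present in 4 of the 33, 12.1%, in 1 of the 25, and in 0.907% of all promoters. Its share was 2.52% among bright genes and 3.88% among bright genes lower in all pairs. The 4 genes are Atp6v1a, Ctsa, Ctsd and Gla, which were among the members picked after their values were seen. They are printed as windows on the coding strand with each full copy in capitals, because they carry the longer element. The windows are chr16:44139354-44139421 (minus strand) for Atp6v1a, chr2:164833730-164833772 (plus) for Ctsa, chr7:142387889-142387956 (minus) for Ctsd and chrX:134601163-134601255 (minus) for Gla, which holds 2 copies of TCACGTGA. A match of letters is a description and no evidence of binding.
Atp6v1a: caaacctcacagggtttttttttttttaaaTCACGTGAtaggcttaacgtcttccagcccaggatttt
Ctsa: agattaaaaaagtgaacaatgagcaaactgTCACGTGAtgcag
Ctsd: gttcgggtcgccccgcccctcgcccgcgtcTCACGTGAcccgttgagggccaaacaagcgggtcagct
Gla: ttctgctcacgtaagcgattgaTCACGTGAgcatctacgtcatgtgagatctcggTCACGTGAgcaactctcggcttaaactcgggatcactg

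Genes of the route by which proteins reach the lysosome and the cell surface were lower as well. Of 80 genes for vesicle coats, adaptors and Golgi structure, 32 were lower in all 4 pairs, 40%, and 5 higher, with a median of -0.19; among the 50 bright ones 21 were lower and 2 higher. Over these 50 the median was -0.21 in Smurf2-/- C57B6, -0.21 in wild-type C57B6 and -0.24 in Smurf2-/- mixed BL, against -0.07, -0.07 and -0.11 for the other bright genes. In wild-type mixed BL it was -0.10, close to the -0.09 of the other bright genes. Tgoln1, a protein that cycles between the trans-Golgi network and the surface, stood at 0.34, 0.51, 0.44 and 0.73 early and at -0.59, -0.34, -0.53 and -0.36 late. The 4 pairs thus differed by nearly the same amount, -0.94, -0.85, -0.97 and -1.09, and its limma adjusted p of 0.14 equals the smallest over all genes. Golga4, a tether of the trans-Golgi, differed by -0.56 ± 0.10, the clathrin light chain gene Cltb by -0.84 ± 0.17 and Ap1s2, a subunit of the clathrin adaptor that serves the trans-Golgi, by -0.78 ± 0.17. Igf2r, the receptor that carries newly made lysosomal enzymes from the Golgi to the lysosome and also binds the growth factor IGF2, was lower by -1.04, -0.65, -1.04 and -0.85 in the 4 pairs. Of 58 Rab GTPase genes, which direct vesicles to their targets, 14 were lower and 5 higher in all pairs, and Rab18 and Rab39b went opposite ways, at -0.40 ± 0.05 and 0.86 ± 0.08. The endosomal SNARE gene Vti1b, which helps vesicles fuse, differed by -0.51 ± 0.08.

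Genes of the endoplasmic reticulum, where secreted and lysosomal proteins fold, were lower in 15 of 30 cases in all pairs, 50%, with a median of -0.27, and 3 were higher. On the lower side, the stress sensor kinase gene Eif2ak3 differed by -0.64 ± 0.14, the co-chaperone gene Dnajb9 by -0.86 ± 0.23 and the chaperone gene Hsp90b1 by -0.33 ± 0.07. The 3 higher members were Asns, Atf4 and Chac1, with differences of 0.62 ± 0.16, 0.38 ± 0.12 and 0.60 ± 0.25; Atf4 and Chac1 were named after their values were seen. Atf4 encodes a transcription factor that is translated when amino acids run short, among other stresses, and Asns and Chac1 are among its targets. Why these 3 went opposite to the rest of the list was not tested. Autophagy genes, which deliver cell contents to the lysosome, were lower in 9 of 36 cases, 25%, and higher in 2. Among the 14 bright ones 4 were lower, 28.6%, and 0 higher, against 21.6% and 7.7% of all bright genes. Atg4a differed by -0.59 ± 0.08 and Atg3 by -0.55 ± 0.08. Proteasome genes, the other main route of protein breakdown, showed no such balance: 1 of 51 was lower in all pairs and 9 were higher, 17.6%, with a median of 0.01.

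Genes for making proteins went the other way. Of 60 cytosolic ribosomal protein genes 31 were higher at late passage in all 4 pairs, 51.7%, and 1 was lower; among the 50 bright ones 27 were higher and 0 lower, against 7.7% and 21.6% of all bright genes. The differences were small: those 31 genes had a median of 0.28, and the largest was 0.52. Rps10, of the small subunit, stood at -0.16, -0.21, -0.06 and -0.16 early and at 0.10, 0.10, 0.30 and 0.19 late, so the groups did not overlap. Rpl8, of the large subunit, differed by 0.43 ± 0.09 and Rpsa, a small subunit protein, by 0.38 ± 0.07. The exception, Rps4l, differed by -0.50 ± 0.06, whereas its near-copy Rps4x, chosen after its values were seen, differed by 0.29 ± 0.08. Many ribosomal protein genes have near-identical copies in the genome, and reads of a probe shared between copies cannot be assigned. The list was higher in each culture, with bright-gene medians of 0.13, 0.05, 0.35 and 0.33 in Smurf2-/- C57B6, wild-type C57B6, Smurf2-/- mixed BL and wild-type mixed BL.

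Genes of mitochondrial ribosomes and of ribosome assembly leaned the same way with smaller shares. Mitochondrial ribosomal protein genes were higher in 20 of 76 cases, 26.3%, and lower in 2, with Mrpl13 at 0.66 ± 0.09 and Mrps10 at 0.43 ± 0.08. Their list median was 0.15, but 0.01 in wild-type C57B6. Over the 26 bright ones the median was 0.04, against -0.09 over all bright genes, with 5 higher, 19.2%, and 2 lower in all pairs. Ribosome biogenesis genes were higher in 11 of 41, 26.8%, and lower in 0, with a list median of 0.13; Rrp1b and Heatr1, which encode nucleolar proteins of ribosomal RNA processing, differed by 0.58 ± 0.12 and 0.34 ± 0.09. In wild-type mixed BL, however, the biogenesis median was -0.12. Translation initiation and elongation factor genes were higher in 8 of 60, 13.3%, and lower in 6, and aminoacyl-tRNA synthetase genes, which charge tRNAs, were higher in 4 of 34, 11.8%, and lower in 2, both below the 15.1% of all genes that were higher. Oxidative phosphorylation genes showed 15.3% higher and 6.12% lower in all pairs, near or below the shares over all genes.

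Amino acid and one-carbon genes were higher by larger amounts. Serine, glycine and folate genes supply the carbon units for nucleotide synthesis. Of 21 measured members of this list, which includes amino acid transporters, 10 were higher in all 4 pairs, 47.6%, 6 of them by at least 0.2 in every pair, and 1 was lower; the median was 0.39. Mthfd2, the mitochondrial folate enzyme of proliferating cells, stood at -0.45, -1.24, -0.12 and -0.06 early and at 0.38, 0.06, 0.90 and 0.63 late, without overlap and with a difference of 0.96 ± 0.12. Shmt2, the enzyme that passes carbon from serine to folate in mitochondria, differed by 0.67 ± 0.14 (chosen after its values were seen). Slc7a11, which imports cystine in exchange for glutamate, stood at -0.28, -0.89, -0.33 and -0.78 early and at 0.28, 0.56, 1.29 and 0.89 late, a difference of 1.33 ± 0.21. The glutamine transporter gene Slc1a5 differed by 1.05 ± 0.18 and the glutamate transporter gene Slc1a3 by 1.55 ± 0.27. Sqle, an oxygen-dependent enzyme of cholesterol synthesis, was higher by 0.74, 0.77, 0.52 and 0.55 in the 4 pairs.

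The amino acid response element that ATF4 binds is known from the Slc7a11 promoter, and the core TGATGCAA was therefore searched on both strands in the same windows. Slc7a11 was the 1 gene with a match among the 9 higher members of the list that have a promoter in the table, and it held 2 copies, 1 on each strand. The core was present in 0.918% of all promoters. The window, chr3:50443623-50443709 on the minus strand of GRCm38.p6, is shown with both copies in capitals because few promoters hold this sequence.
Slc7a11: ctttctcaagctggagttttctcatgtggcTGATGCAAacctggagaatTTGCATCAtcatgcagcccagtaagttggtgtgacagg

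Sugar metabolism differed from this. Of 27 glycolysis genes 8 were lower in all 4 pairs, 29.6%, and 0 higher, with a median of -0.24; Pgam1, phosphoglycerate mutase, was lower by -0.51, -0.67, -0.50 and -0.64. Enzymes of redox and aldehyde metabolism were mixed: the secreted glutathione peroxidase gene Gpx3 differed by -1.35 ± 0.21 and the retinaldehyde dehydrogenase gene Aldh1a1 by -1.42 ± 0.48, whereas the glutathione transferase gene Gstm1 differed by 0.89 ± 0.14. Fabp3, a carrier of fatty acids in the cytosol, differed by -1.21 ± 0.20. Maob, the mitochondrial monoamine oxidase, differed by -2.08 ± 0.18 without overlap, at 1.83, 1.22, 0.54 and 1.21 early and at -0.54, -0.86, -0.93 and -1.20 late.

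Ranked by the pair that moved least, the 15 leading genes on the lower side were Itgbl1, Gas6, Thbs2, Ctsk, Maob, Lrrc32, Htr2a, Gpnmb, Mmp3, Ccl7, Elobl, Pmaip1, Hes1, Prrg4 and Cpa6; the least-moving pair differed by 2.17 in Itgbl1 and by 1.12 in Cpa6, and by 1.10 in the gene of rank 16, Slc5a7, the choline transporter. Gas6, a secreted ligand of the TAM receptor kinases, stood at 0.83, 1.24, 1.43 and 1.05 early and at -1.94, -0.83, -2.76 and -1.40 late. The late values all lay below the early ones, and the mean difference of -2.87 ± 0.37 corresponds to 7.32-fold. Itgbl1, a secreted protein with integrin-like repeats, stood at 0.28, 0.83, 1.96 and 2.21 early and at -1.90, -1.39, -0.28 and -1.87 late, again without overlap. Thbs2, a thrombospondin that restrains blood vessel growth, differed by -3.26, -1.78, -1.59 and -4.98 in the 4 pairs. Gpnmb, a membrane glycoprotein of endosomes and lysosomes, differed by -2.29 ± 0.42 but overlapped between groups, and Prrg4, a membrane protein with a Gla domain, differed by -1.13 and -1.21 in C57B6 and by -3.04 and -3.86 in mixed BL. Elobl, an elongin B-like gene, differed by -1.92 ± 0.25. None of the 15 was bright.

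**Figure D3:**
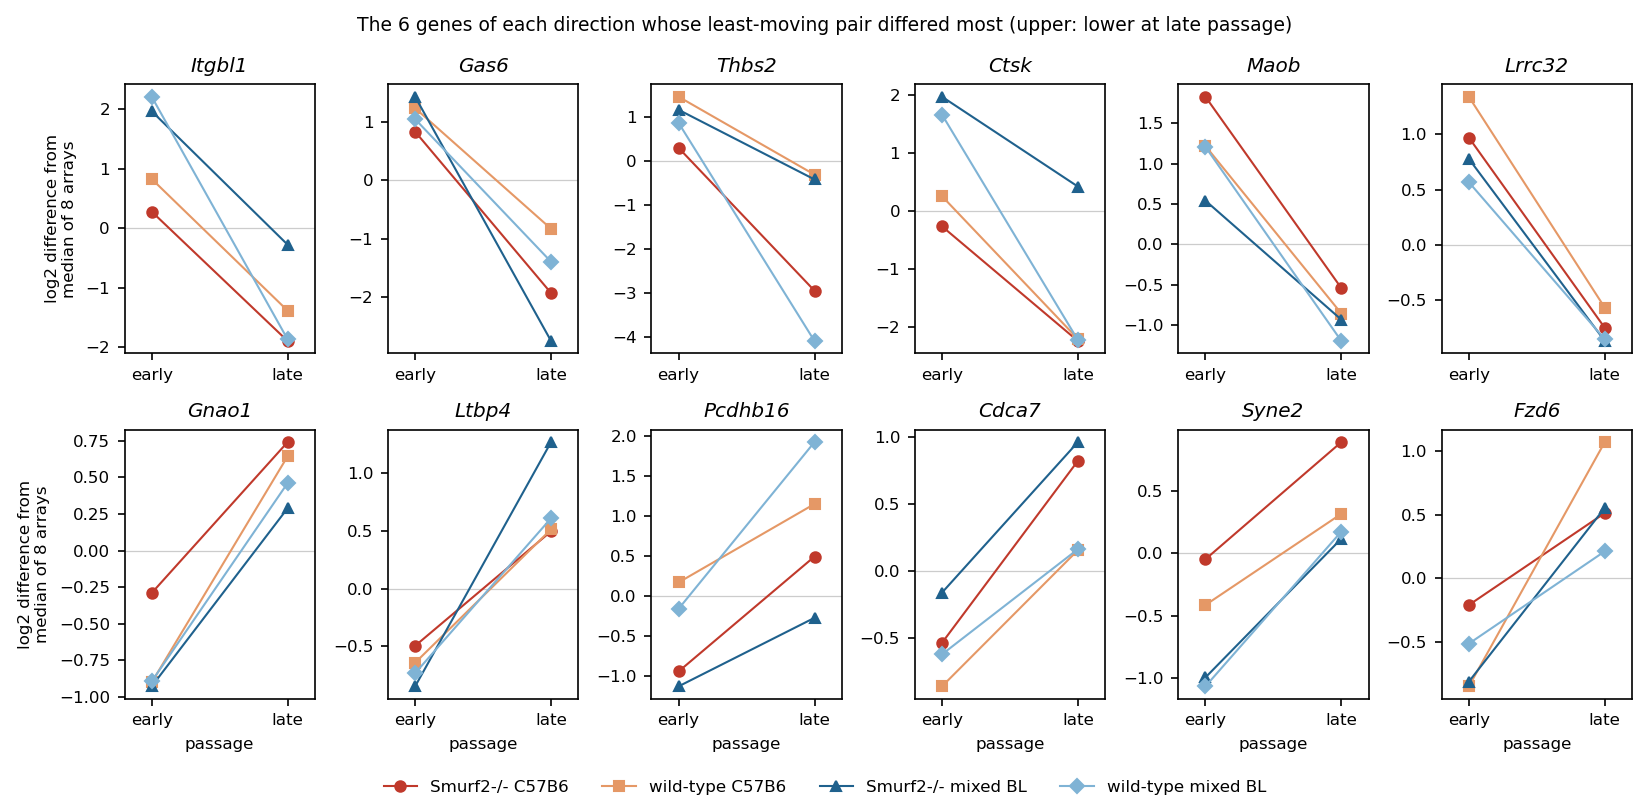
Values of the 6 genes of each direction whose least-moving pair differed most, as log2 difference from the median of 8 arrays, at early and late passage; lines join the arrays of 1 genotype and background. The upper row holds genes lower at late passage and the lower row genes higher at late passage; the scale differs between panels, and Ctsk and Pcdhb16 are the 2 genes whose early and late values overlap.

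Matrix genes were counted by family. Of 17 matricellular genes 7 were lower in all pairs, 41.2%, and 1 higher, with Ccn1, an adhesive growth regulator, at -0.84 ± 0.26 and tenascin C (Tnc) at -0.65 ± 0.16. Elastic fibre and lysyl oxidase genes were lower in 6 of 15, 40%, and higher in 1, and here the fibulin family was split: Fbln2 and Efemp1 differed by -0.82 ± 0.19 and -2.53 ± 0.69, and Fbln1 by 0.81 ± 0.17 with no overlap between groups. Proteoglycan genes were lower in 6 of 22, 27.3%, and higher in 0: the small proteoglycans Aspn and Prelp differed by -1.60 ± 0.46 and -1.0 ± 0.23, and the cell surface heparan sulfate carriers Gpc6 and Sdc3 by -0.89 ± 0.22 and -0.98 ± 0.16. Of 44 collagen genes 3 were lower in all pairs, 6.82%, and 7 higher, 15.9%, with a median of -0.04. Over the 13 bright collagen genes the median was -0.38, against -0.09 over all bright genes, with 1 lower and 0 higher in all pairs. Thy1, a surface glycoprotein that marks many fibroblasts, was lower by -2.03, -0.28, -1.86 and -4.11, and stood at 2.76 and 1.89 in the early mixed BL arrays against -0.04 and 0.04 in the early C57B6 arrays.

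Several proteases and protease inhibitors were lower. Of 40 metalloproteinase, ADAMTS and TIMP genes 10 were lower in all pairs, 25%, and 7 higher, 17.5%; the higher ones differed by at most 0.22. Mmp3, stromelysin, stood at 0.93, 4.12, 0.57 and 0.75 early and at -0.89, -0.69, -0.75 and -0.57 late, so 1 early array, wild-type C57B6, stood far above the other 3. The collagenase gene Mmp13 differed by -1.53 ± 0.41, the membrane-type protease gene Mmp16 by -0.59 ± 0.08 and the protease inhibitor gene Timp2 by -0.68 ± 0.07. Serping1, the complement C1 inhibitor, differed by -2.04 ± 0.30, and Cpa6, a carboxypeptidase, by -1.86 ± 0.28. The chemokine genes Ccl7 and Ccl2, which attract monocytes, differed by -2.02 ± 0.36 and -1.98 ± 0.41 with no overlap, but the 36 chemokine genes as a family had 5 lower, 13.9%, and 6 higher, 16.7%. Of 38 genes of the senescence secretory list, which overlaps these families, 15 were lower in all pairs, 39.5%, and 1 higher, with a median of -0.45.

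Growth factor systems held lower genes at several steps. Among 21 genes of the insulin-like growth factor axis 6 were lower, 28.6%, and 1 higher: Igfbp3, a carrier of IGFs, differed by -0.80, -0.97, -2.66 and -4.19, and Pappa, a protease that frees IGFs from their carriers, by -1.54 ± 0.64. Igf2, the growth factor itself, was higher in 3 of 4 pairs at 0.79 ± 0.34, and Igf2bp1, an RNA-binding protein, was of mixed sign at -0.04 ± 0.13. In the list of PDGF, VEGF, EGF and other growth factor systems, which also holds Gas6, 10 of 40 genes were lower, 25%, and 4 higher: the ligand genes Pdgfd and Vegfd differed by -1.34 ± 0.23 and -0.90 ± 0.18 and the VEGF-C and VEGF-D receptor gene Flt4 by -0.73 ± 0.20. Fgf2, a fibroblast growth factor, differed by -0.89 ± 0.23, and Dusp1, a phosphatase that switches off MAP kinases, by -1.46 ± 0.41. Their list of 62 FGF, Sprouty and Dusp genes had 8 lower in all pairs, 12.9%, and 4 higher, with a median of 0.01. That lower share is near the 11.9% over all genes.

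Among TGF-beta family genes, those of latency, where the ligand is held in an inactive form, went both ways. Lrrc32, which anchors latent TGF-beta at the cell surface, stood at 0.97, 1.34, 0.78 and 0.57 early and at -0.75, -0.57, -0.87 and -0.85 late. The pairs differed by -1.72, -1.91, -1.65 and -1.42, with a mean of -1.67 ± 0.09. The latent TGF-beta binding protein genes went opposite ways: Ltbp2 differed by -1.48 ± 0.39, and Ltbp4 stood at -0.49, -0.64, -0.84 and -0.73 early and at 0.49, 0.51, 1.27 and 0.61 late, a difference of 1.40 ± 0.20 without overlap. Inhba, the activin A subunit, differed by -1.78 ± 0.48, from -0.27 in wild-type C57B6 to -3.27 in wild-type mixed BL. Of the 32 measured genes of this list 6 were lower in all pairs, 18.8%, and 1 was higher. Nedd4, a ubiquitin ligase of the same family as Smurf2, differed by -0.19 ± 0.07, and Smurf2 itself by -0.47 ± 0.13, lower in all 4 pairs. That mean includes the Smurf2-/- cultures, at -0.78 in C57B6 and -0.49 in mixed BL. In the wild-type cultures Smurf2 differed by -0.07 in C57B6 and by -0.53 in mixed BL.

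In other receptor systems, Wnt genes were often slightly higher, 16 of 57 higher in all pairs, 28.1%, and 1 lower. Their median was 0.09, and 2 members were higher by 0.2 or more in every pair. Over the 8 bright ones the median was -0.04. Of these, 3 were higher in all pairs, 37.5%, and 0 lower, against 7.7% and 21.6% of all bright genes. Fzd6, a Wnt receptor, differed by 1.19 ± 0.23 and its relative Fzd4 by 0.88 ± 0.24; the co-receptor gene Lrp6 differed by 0.35 ± 0.07. Hes1, the transcriptional repressor induced by Notch, stood at 0.74, 0.74, 0.40 and 0.54 early and at -1.07, -0.40, -2.34 and -1.31 late. Of 20 Notch pathway genes 2 were lower in all pairs, 10%, and 3 higher, 15%, near the shares over all genes. The death receptor gene Fas, and Tnfrsf23 and Eda2r, receptors of the same family, differed by -1.01 ± 0.09, -1.55 ± 0.20 and -1.25 ± 0.28. The 39 TNF ligand and receptor genes as a family had 6 lower, 15.4%, and 3 higher. Gnao1, a G protein alpha subunit, led the higher side and was bright: it stood at -0.29, -0.90, -0.93 and -0.89 early and at 0.74, 0.65, 0.29 and 0.46 late. Htr2a, a serotonin receptor, differed by -1.81 ± 0.18, and Rgs16, a brake on G protein signals, by -1.18 ± 0.42. Kruppel-like, AP-1 and immediate early factor genes were lower in 10 of 38, 26.3%, and higher in 6, 15.8%, with Jun at -0.87 ± 0.14, Klf6 at -0.66 ± 0.10 and Egr1 at -0.65 ± 0.10.

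The 15 leading genes on the higher side were Gnao1, Ltbp4, Pcdhb16, Cdca7, Syne2, Fzd6, Mthfd2, Rab39b, Rif1, Mtbp, Slc1a3, Adamtsl3, Slc7a11, Septin6 and Sqle. The least-moving pair differed by 1.03 in Gnao1 and by 0.52 in Sqle, and by 0.51 in the gene of rank 16, the cohesin subunit Rad21. Rif1, which sets the timing of DNA replication, stood at -0.41, -0.03, -0.43 and -0.61 early and at 0.68, 0.74, 1.03 and 0.03 late. Syne2, a giant protein that joins the nuclear envelope to the cytoskeleton, differed by 1.00 ± 0.10 over its 4 probe sets, and Cdca7, a Myc target that recruits a chromatin remodeller, by 1.07 ± 0.11. Of 18 nuclear envelope genes 7 were higher in all pairs, 38.9%, and 1 was lower; Tmpo, a lamina-associated protein, differed by 0.55 ± 0.14, and Lmnb1, a lamin known to be lost in senescent cells, by 1.29, 0.11, 0.10 and 0.46. The chromatin genes Hmgn2, Hmgb3 and Cbx2 differed by 0.68 ± 0.10, 1.07 ± 0.26 and 0.46 ± 0.06, all without overlap of the groups. Their lists were near the 15.1% of all genes that were higher. Polycomb genes, with Cbx2, had 5 of 31 higher, 16.1%, and 2 lower, and chromatin remodeller genes, with Hmgn2 and Hmgb3, 9 of 54, 16.7%, and 1 lower. The cytoskeletal gene Septin6 differed by 0.69 ± 0.09, the clustered protocadherin gene Pcdhb16 by 1.34 ± 0.22 and Adamtsl3, a secreted matrix protein related to the ADAMTS proteases, by 1.02 ± 0.17.

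Cell cycle genes differed by unequal amounts in the 4 cultures. Of 50 replication and licensing genes 17 were higher in all 4 pairs, 34.0%, and 0 lower, but the list median was 0.84 in Smurf2-/- C57B6, -0.01 in wild-type C57B6, 0.31 in Smurf2-/- mixed BL and 0.19 in wild-type mixed BL. Orc2, a subunit of the origin recognition complex, was higher by nearly equal amounts in all cultures, 0.32, 0.24, 0.33 and 0.35, and its partner Orc5 differed by 0.43 ± 0.10. Mcm8, a helicase of DNA repair and replication, differed by 0.57 ± 0.15. Mitosis genes were higher in all pairs in 7 of 44 cases, 15.9%, close to the 15.1% over all genes, and lower in 0. Their list medians were 0.97 and 0.56 in the Smurf2-/- cultures and -0.05 and -0.04 in the wild-type ones, and the spindle checkpoint kinase gene Bub1b differed by 1.30, 0.33, 1.04 and 0.30. Limma called no interaction of passage with genotype for any of these genes. Genotype also ran together with Xist and the Y-linked genes, described below, so genotype and sex cannot be told apart.

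**Figure D4:**
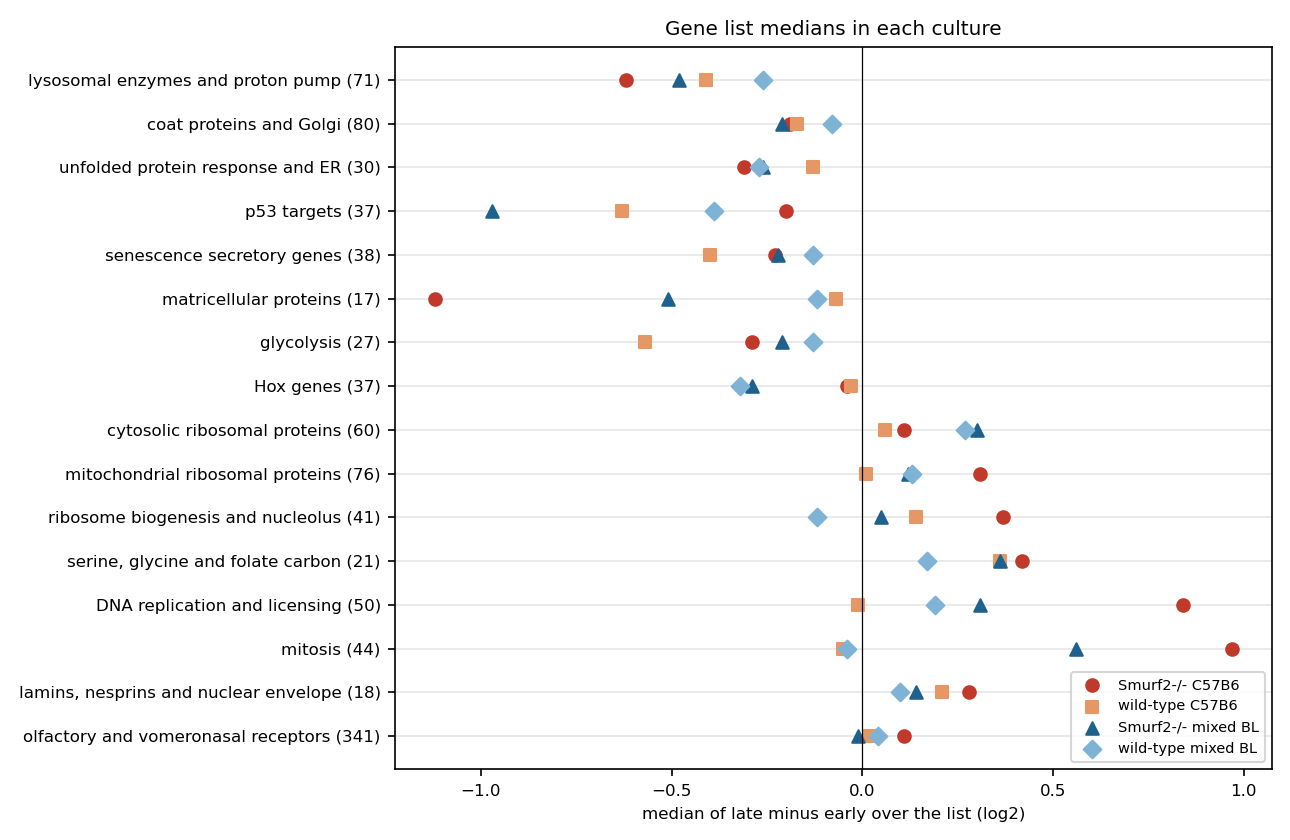
Median late minus early difference (log2) of 16 gene lists in each of the 4 cultures (symbols), with the number of measured genes in brackets. All 4 medians lie below 0 for the lysosomal list (-0.62 to -0.26) and above 0 for cytosolic ribosomal proteins (0.06 to 0.30), whereas the mitosis medians part by genotype.

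Several brakes on the cell cycle and several genes of cell death and survival were lower. Of 33 cyclin, CDK, inhibitor, E2F and retinoblastoma family genes 7 were lower in all pairs, 21.2%, and 4 higher: the inhibitor gene Cdkn1c differed by -1.14 ± 0.29, the repressor gene E2f6 by -1.01 ± 0.18 and the retinoblastoma gene Rb1 by -0.62 ± 0.10, whereas the inhibitor gene Cdkn1b differed by 0.66 ± 0.16. Cdkn2a, the locus of p16 and p19Arf, was of mixed sign, at 0.18 and 0.52 in Smurf2-/- C57B6 and Smurf2-/- mixed BL and at -0.02 and -0.35 in the wild-type cultures, and its neighbour Cdkn2b differed by 0.08 and 0.30 in C57B6 and by -0.54 and -1.22 in mixed BL. Of 37 p53 targets 20 were lower in all pairs, 54.1%, and 1 higher, with a median of -0.63. Pmaip1, the BH3-only death protein Noxa, stood at 1.01, 1.17, 0.16 and 0.81 early and at -0.16, -0.53, -1.0 and -0.58 late, without overlap. The sulfatase gene Sulf2 and the epoxide hydrolase gene Ephx1, both in that list, differed by -1.55 ± 0.34 and -1.04 ± 0.14, and Mdm2, which encodes the p53 ubiquitin ligase, by -0.20, -0.53, -2.05 and -1.24. The survival genes Cflar and Mcl1 differed by -0.95 ± 0.20 and -0.59 ± 0.14. Their list of 28 caspase, Bcl2 family and apoptosis inhibitor genes, which also holds Pmaip1, had 6 lower in all pairs, 21.4%, and 3 higher. The median of that list was -0.04. Tert, the telomerase protein, was lower in all pairs at -0.37 ± 0.07.

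Genes of positional identity were lower in part. Of 37 Hox genes 12 were lower in all 4 pairs, 32.4%, 9 of them by at least 0.2 in every pair, and 4 were higher. Hoxc8 and Hoxc6, which pattern the trunk, stood high in the early mixed BL arrays, at 3.37 and 3.00 for Hoxc8, against 1.20 and 0.37 in the early C57B6 arrays and -0.71 to -0.37 in the late ones. Hoxc5 and Hoxa5 differed by -1.55 ± 0.46 and -1.13 ± 0.34. Ndn, an imprinted growth suppressor, was lower by -0.52 and -0.96 in C57B6 and by -3.64 and -3.50 in mixed BL, and Twist2, a mesenchymal transcription factor, differed by -0.91 ± 0.32. The embryonic growth genes Hmga2 and Igf2bp3 were of mixed sign: both were lower in mixed BL, by -1.67 and -1.92 for Hmga2 and -1.90 and -2.47 for Igf2bp3, and Hmga2 differed by 0.69 and -0.25 in C57B6. Limma called 0 genes for passage by background, so these contrasts between backgrounds rest on the values alone.

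Chromosomes were grouped after the values had been seen. In wild-type C57B6 the 166 bright genes of chromosome 15 had a median difference of 0.43, the highest of that culture, followed by chromosome 17 at 0.22 and chromosome 2 at 0.11, and the lowest was chromosome 13 at -0.26. The other cultures stood at -0.11, -0.01 and 0.02 for chromosome 15. In Smurf2-/- C57B6 chromosome 6 had a median of 0.24, while every other chromosome lay between -0.14 and -0.06. In mixed BL the medians ran from -0.24 (X) to 0.09 (chromosome 8) without Smurf2 and from -0.26 (chromosome 5) to 0.08 (chromosome 8) in wild-type. Chromosome 15 also carried 33 bright genes higher in all 4 pairs, 19.9%, against 7.7% of all bright genes, and 3 lower. On chromosomes 17 and 19 the higher shares were 13.5% and 12.8%, and the lower ones 5.26% and 25.6%. Chromosome 15 holds 704 of the 17501 genes. Of the 15 leading higher genes 4 lie on chromosome 15, Fzd6, Mtbp, Slc1a3 and Sqle, and 0 of the 15 leading lower genes; Rpl8, Atf4 and Mrpl13 lie there too. In the other 3 pairs Mtbp, whose product binds Mdm2 and serves replication origins, was higher by 0.69, 1.27 and 0.63, and Rpl8 by 0.32, 0.42 and 0.26. Both genes were named for being higher in all 4 pairs, so this sign was set by the choice. Copy number was not measured, and its part in these differences was not tested.

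**Figure D5:**
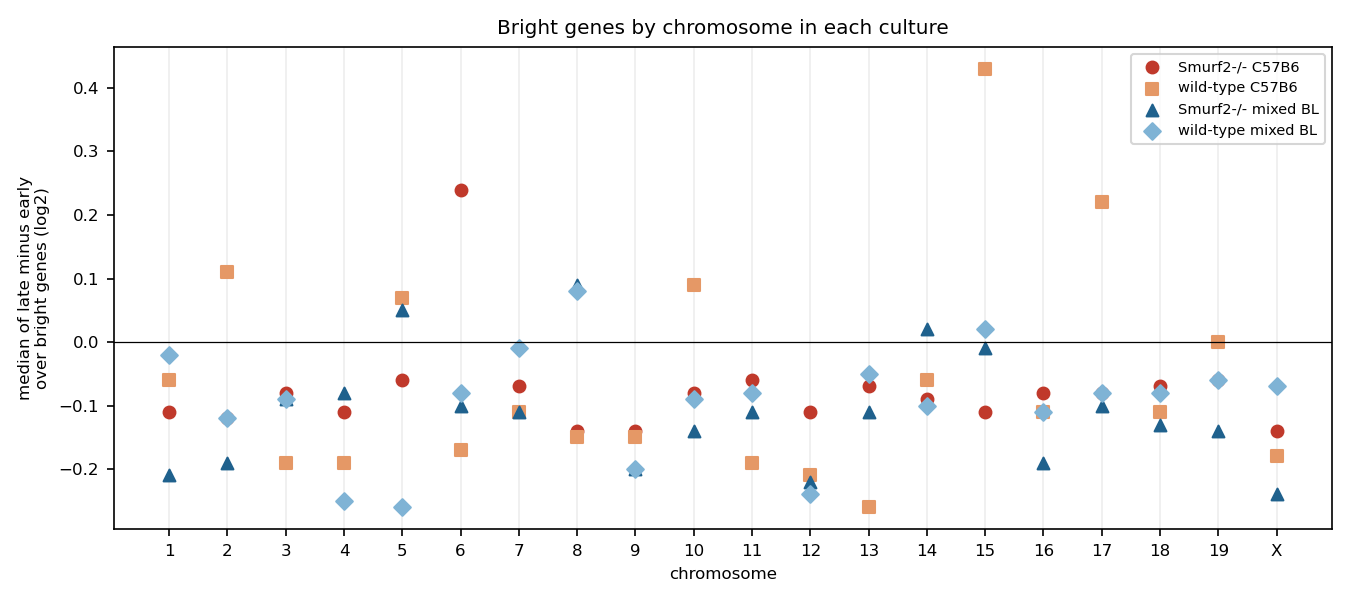
Median late minus early difference (log2) over the bright genes of each chromosome in each of the 4 cultures (symbols). Wild-type C57B6 stands at 0.43 on chromosome 15 and Smurf2-/- C57B6 at 0.24 on chromosome 6; the other medians lie between -0.26 and 0.22.

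The 4 cultures contributed unequally. Among the 4721 genes of 1 sign in all pairs the largest difference came from Smurf2-/- C57B6 in 1872, 39.7%, from Smurf2-/- mixed BL in 1186, from wild-type mixed BL in 1097 and from wild-type C57B6 in 566, 12%. Over all genes, which are not independent replicates, the late minus early differences of 2 cultures correlated with r from 0.13 to 0.54, highest between the mixed BL cultures and lowest between wild-type C57B6 and Smurf2-/- mixed BL. Xist, which is transcribed from the silenced X chromosome of female cells, lay between 1.53 and 3.20 in the wild-type arrays and between -2.07 and -1.53 in the Smurf2-/- arrays at both passages. The Y-linked genes Uty, Kdm5d and Eif2s3y lay on the opposite sides at both passages, so no pair joined arrays of opposite sign in these genes. Sizes did differ within pairs: Eif2s3y stood at 2.60 early and 1.28 late in Smurf2-/- C57B6, and Xist at 1.53 and 2.41 in wild-type mixed BL. Xist was high in every wild-type array and the Y-linked genes were high in every Smurf2-/- array. Contrasts by genotype therefore cannot be told apart from this sex-linked pattern.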

How the data were processed

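RNA of 8 MEF cultures was hybridised to Affymetrix mouse arrays, 1 array for each combination of genotype, background and passage. In the deposited table each value is a log2 number from which the transcript cluster's median over all arrays had been subtracted before deposit, since no row median exceeds 5e-07 in size. How arrays were normalised and probes summarised is not given in the sources used here. Builds mm8 and mm9 appear in the submitters' processing notes, with no step named. Names came from the annotation of a gene-level array, which the probe identifiers matched, although an exon array is named in the series text. Of 24169 clusters 19134 had 1 symbol and named 17501 genes, 1230 had several and 3805 none; symbols of 19067 clusters were updated through gene identifiers with a RefSeq table of GRCm38.p6. A gene's value was the mean of its clusters.

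Limma 3.58.1 in R 4.3.3 fitted passage with genotype and background combined (the culture) as a block over 22536 features, with eBayes without trend, 3 residual degrees of freedom, Benjamini-Hochberg adjustment and a threshold of 0.05; the scripts were tested on simulated data. The pairing comes from the labels' genotype and background. Over genes, deviations of the early and late array of a culture from their passage means correlated with r = 0.05, 0.31, 0.37 and 0.14, so the data show it weakly, and for Smurf2-/- C57B6 hardly. Only the number of arrays limits the precision that can be stated, since signal over background was not given. Bright clusters were those whose values were all whole multiples of the step of log2 numbers from 8 upwards (tolerance 6e-08), 22.1% of clusters. Named were the 15 genes per direction of 1 sign in all pairs with the largest least-moving pair, up to 4 such members per list, and a set of genes always named; others are said to be chosen after their values were seen. The comparison, the gene lists and the named genes were chosen with earlier results of these data known. Chromosome grouping, the motif search and the fits on genes of 1 symbol alone were added after seeing the data.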

Additional observations from a re-analysis of the deposited data

Results flagged for a closer look

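In 292 groups of 4 arrays of 1 passage class, 1 for each named gene and class, the array at the edge was set against the others: its gap to the nearest array was divided by the group's whole range, and 25 gaps exceeded Dixon's critical value for 4 samples. Chance alone gives about 1 such gap in 20 groups, so single cases carry little weight. The Smurf2-/- C57B6 array stood apart in 8 of the 25: above the other early arrays for Gnao1 (0.947) and Cdkn1c (0.876), below them for Efemp1 (0.967) and Serping1 (0.911), above the other late arrays for Slc5a7 (0.88), Fbln2 (0.85) and Hmgn2 (0.864), and below them for Flt4 (0.947). The Smurf2-/- mixed BL array stood apart at late passage, above the others for Ctsk (0.987), Ltbp4 (0.854), Shmt2 (0.868) and Cdkn2a (0.833) and below them for Hsp90b1 (0.926), Fgf2 (0.9), Hoxa5 (0.976) and Mdm2 (0.87). The wild-type C57B6 array stood above the other early arrays for Mmp3 (0.898) and below them for Asns (0.953), and above the other late arrays for Gpnmb (0.995) and Rb1 (0.853). The wild-type mixed BL array stood above the other early arrays for Elobl (0.859) and Eif2ak3 (0.915), above the other late arrays for Vti1b (0.895) and Mmp13 (0.908), and below them for Cpa6 (0.885).

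In 4 cases flagged among the named genes and gene lists, the late minus early differences of one pair of cultures were all above 0. Those of the other pair were all below 0. Mitosis genes had positive list medians in both Smurf2-/- cultures and negative ones in both wild-type cultures, with means of these medians 0.81 apart; this difference was not tested for the list. Cdkn2a parted by genotype in the same way by 0.54, and Cdkn2b by background, positive in C57B6 and negative in mixed BL, by 1.07; limma's interaction tests called neither gene. The list of TNF ligands and receptors parted by background by 0.12, positive in C57B6, and this was not tested. Lists not described above parted too. The interferon response medians were -0.52 and -0.99 in C57B6 and 0.36 and 0.03 in mixed BL, also untested.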

How the results depend on the processing

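The number of genes called by limma for passage was 0 under these alternatives: without the replicate block (with genotype and background as terms, or with passage alone), with robust moderation, quantile normalization, subtracted array medians, single clusters, bright clusters alone, and without each pair in turn (smallest adjusted p from 0.0511 to 0.495; 0 called each time). It was 3 in the fit without the replicate block on genes of 1 symbol only, added after seeing the data, where Lrrc32 (-1.67) and Tgoln1 (-0.96) were among the 3 with an adjusted p of 0.0463; with the culture block on the same genes it was 0. Both interactions called 0 under the alternatives run. Genes higher in all pairs numbered 295 and genes lower 846 with bright clusters only; 195 and 634 with every pair at 0.2 or more; and over the 3 remaining pairs without each pair in turn, 3251 to 4329 higher and 2549 to 3218 lower. Of genes at 1 log2 unit or more, 7 higher and 29 lower were left with bright clusters only; 190 and 680 passed a threshold of 0.5; and without each pair in turn 18 to 53 higher and 154 to 281 lower, the 281 without wild-type C57B6 and the 53 without either C57B6 pair. Subtracting array medians gave 2170 higher and 2439 lower, and quantile normalization 2294 and 2302. Of 1709 alternative values of 146 named genes 1704 kept their direction; the other 5 came from leaving out a pair, which gave -0.06 to 0.23 for Cdkn2a, -0.19 to 0.06 for Igf2bp1, -0.23 to 0.24 for Xist and -0.07 to 0.23 for Kdm5d. Of 276 alternative medians of the 35 lists 255 stayed within 1 SD of the pair medians. The matricellular median was -0.09 without Smurf2-/- C57B6, and the metalloproteinase median -0.59 over bright genes. The 4 pairs, the missing absolute levels and the single culture per combination limit all of these.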
